A study of Mus musculus with 12 samples.

Results

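A set of 10 genes of iron and heme handling was followed through mouse livers and liver tumors, namely Hamp, Slc40a1, Trf, Tfrc, Tfr2, Fth1, Ftl1, Hp, Hpx and Cp. They were taken by name, as the 10 of the 26301 genes in the count table whose Entrez identifiers carry these mouse symbols, and all 10 were among the 13882 genes with enough counts to be tested. The 12 RNA-seq libraries came from 4 livers of age-matched wild-type mice without the deletions (control livers), from 4 spontaneous liver tumors in which Alb-Cre had deleted E2f7 and E2f8 (DKO tumors), and from 4 spontaneous liver tumors in which Alb-Cre had deleted Rb1 as well (TKO tumors). E2F7 and E2F8 are repressors of cell cycle genes, and RB1 restrains the activating E2Fs. The mice were adult and ageing, and tissue was taken at humane end-points. Alb-Cre is driven by the albumin promoter, so the deletions are made in cells of the hepatocyte lineage and other liver cells keep the genes. Tumors were compared with whole livers of other mice and not with the tissue around them, so tumor growth and genotype cannot be told apart in either comparison with control livers. In such bulk tissue, fewer cells of a type and less RNA per cell cannot be told apart either. Per the paper, TKO mice lived shorter and had a shorter tumor latency than DKO mice. Age at collection may thus differ between the tumor types, and its part in TKO against DKO was not tested.

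The liver sets the iron level of the body. Hepatocytes secrete hepcidin (the product of Hamp), which makes the iron exporter ferroportin (Slc40a1) disappear from the surface of gut cells, macrophages and hepatocytes. Iron travels in blood on transferrin (Trf), enters cells through transferrin receptor 1 (Tfrc), is sensed in part through transferrin receptor 2 (Tfr2), and is stored in ferritin, a shell of heavy (Fth1) and light (Ftl1) chains. Hepatocytes also secrete haptoglobin (Hp), which binds free hemoglobin, hemopexin (Hpx), which binds free heme, and ceruloplasmin (Cp), a copper oxidase that prepares iron for loading onto transferrin.

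Transcripts of Fth1, Ftl1, Slc40a1 and Tfrc carry iron-responsive elements, hairpins bound by the iron regulatory proteins when cellular iron is low. In a 5′ untranslated region the bound protein blocks translation, and in the 3′ untranslated region of Tfrc it protects the mRNA from decay. The RNA level of Tfrc can thus rise when cellular iron is low, while that of ferritin need not change. A search of annotated mm9 exons for a C, any 5 bases, CAGTG, any base and 5 bases able to pair with the first 5 found the pattern in the 5′ untranslated region of 33 of 22611 protein-coding genes (0.146%) and in the 3′ untranslated region of 124 (0.548%). Only the sense strand was searched. The sequences below show the elements found in the genes described here, with the unpaired C and the CAGTG of the loop in capitals. The pattern was found once each in Fth1 (chr19:10057223-10057250, plus strand), Ftl1 (chr7:52715149-52715176, minus strand) and Slc40a1 (chr1:45982310-45982337, minus strand), all in 5′ untranslated regions, and 4 times in the 3′ untranslated region of Tfrc (from chr16:32631306-32631333 to chr16:32631797-32631824, plus strand).
Fth1: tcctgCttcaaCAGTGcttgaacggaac
Ftl1: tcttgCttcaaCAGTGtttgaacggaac
Slc40a1: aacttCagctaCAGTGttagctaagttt
Tfrc element 1: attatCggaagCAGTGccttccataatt
Tfrc element 2: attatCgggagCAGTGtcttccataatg
Tfrc element 3: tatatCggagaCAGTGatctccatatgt
Tfrc element 4: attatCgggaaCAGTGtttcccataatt

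Libraries held between 9165812 and 16424973 counts. Between 4.82% and 22.7% of these were albumin (Alb), between 3.12% and 9.09% came from the 10 genes, and each of the 10 had at least 70 counts in every library. Rb1, which codes for the retinoblastoma protein, was lowest in the 4 libraries labelled TKO, at 3.21 to 5.47 counts per 1000000 counts (CPM, scaled between libraries by the TMM method), against 6.52 to 11.3 CPM in the other libraries. E2f7 had 4 to 24 counts in a library. E2f8 was higher on average and not lower in tumors. It measured 4.52 to 8.97 CPM in control livers, 7.59 to 45.6 CPM in DKO tumors and 12.3 to 52.2 CPM in TKO tumors. Neither tumor type passed against control livers in edgeR's quasi-likelihood test (adjusted p = 0.103 in DKO and 0.146 in TKO tumors). Counts over a whole gene do not show whether an exon was deleted, so neither E2f7 nor E2f8 checks the labels. All 9 biliary and progenitor markers summed to 48.8 to 66.4 CPM in control livers, 121 to 187 CPM in DKO tumors and 56.8 to 80.3 CPM in TKO tumors, and no marker of any listed liver cell type was at 0 throughout a group.

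In control livers the 10 genes spanned more than 3 orders of magnitude once length was taken into account. Per kilobase of exon, Hpx (9097 ± 6175 CPM per kilobase, SD, n = 4) and Trf (7992 ± 1499) were the most abundant and overlapped. Hamp (3644 ± 1191) and Hp (3123 ± 2221) came next and overlapped with each other. Fth1 (881 ± 212) and Ftl1 (336 ± 68.3) followed without overlap with their neighbours. Cp (198 ± 45.5), Slc40a1 (142 ± 29.0) and Tfr2 (132 ± 12.4) formed a group in which each overlapped with the next. Tfrc was lowest, at 1.66 ± 0.473 CPM per kilobase. The order of the top pair and the size of Cp depend on the gene model, since with the longest annotated transcript as the length Trf had 10290 and Cp 415 CPM per kilobase. In DKO tumors Hamp moved from rank 3 to rank 5 (848 ± 859 CPM per kilobase), and Tfrc was again last with 8.27 ± 6.93 CPM per kilobase.

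**Figure D1:**
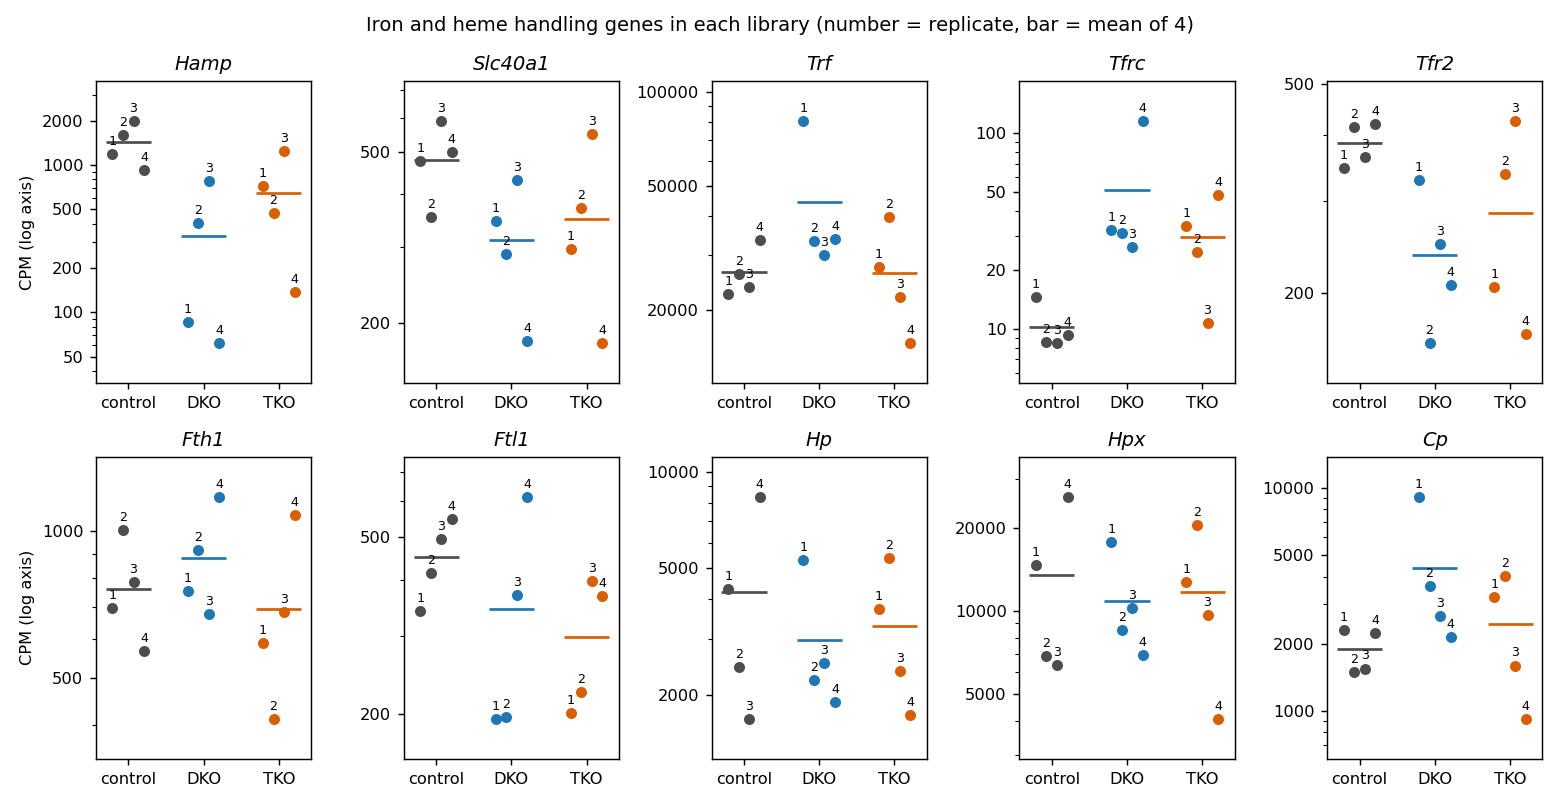
CPM (log axis, a separate scale for each gene) of the 10 genes in each of the 12 libraries, grouped as control livers, DKO tumors and TKO tumors, with the replicate number at each point and a bar at the mean of 4. Tfrc lies above all control livers in the 4 DKO tumors and in 3 of 4 TKO tumors, Hamp lies below all control livers in the 4 DKO tumors, and Hp and Hpx spread widely in control livers.

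Of the 10 genes, 1 passed in DKO tumors against control livers (Tfrc, higher) at an adjusted p under 0.05 in edgeR's quasi-likelihood test, with Benjamini-Hochberg adjustment over all tested genes. In that comparison 2.42% of all tested genes passed, 1.41% higher and 1.01% lower. At an unadjusted p under 0.05 the count was 4 of 10, against 24% of all tested genes. The groups did not overlap for Tfrc, above control livers, and for Hamp and Tfr2, below them, where 8.87% of all tested genes lay wholly above and 7.3% wholly below. The median log2 fold change of the 10 was −0.35, against 0.02 over all tested genes. In TKO tumors none of the 10 passed in edgeR (0.0864% of all genes did), in DESeq2 (3.49%) or in voom (0.699%), 1 had an unadjusted p under 0.05 (16.3%), no group was free of overlap (7.67%), and the median was −0.27. Between TKO and DKO tumors none of the 10 passed in edgeR (0% of all genes), in DESeq2 (0.398%) or in voom (0%), none had an unadjusted p under 0.05 (9%), and the median was −0.05. The largest differences there were those of Hamp (0.96, SE 0.762, edgeR adjusted p = 0.725), Cp (−0.84, SE 0.528, adjusted p = 0.646), Tfrc (−0.80, SE 0.507, adjusted p = 0.651) and Trf (−0.76, SE 0.519, adjusted p = 0.673). The comparisons with control livers share those 4 livers, so the TKO and DKO values are not independent of each other.

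**Figure D2:**
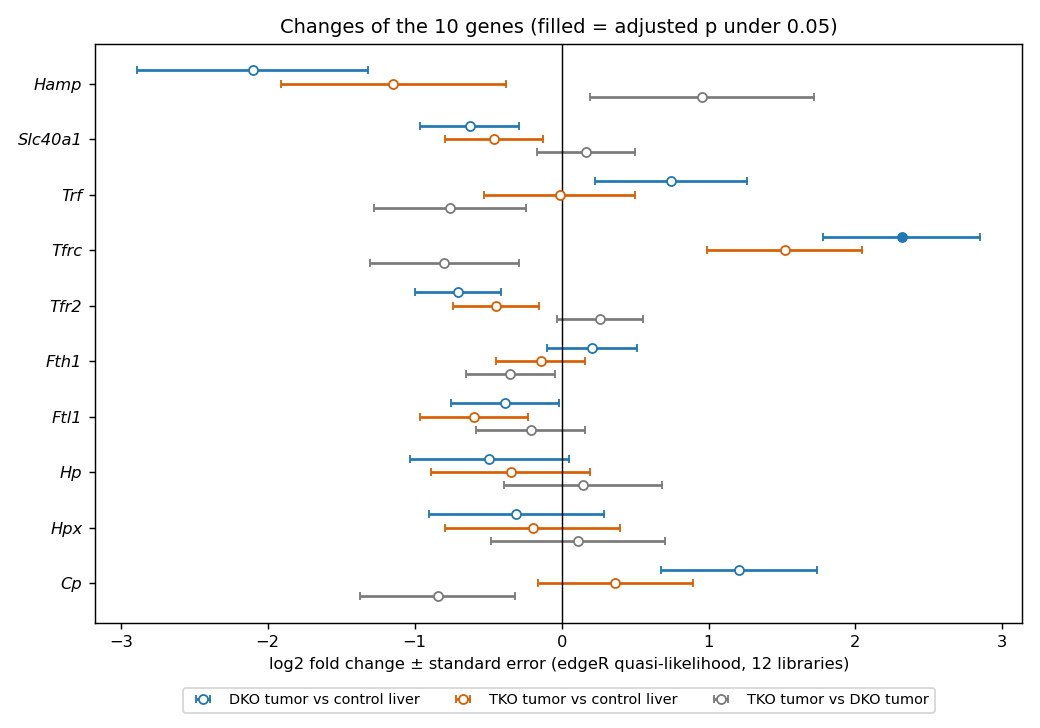
Log2 fold change (horizontal axis, points) with its standard error (bars) for each of the 10 genes in DKO tumors against control livers, TKO tumors against control livers, and TKO against DKO tumors, from edgeR's quasi-likelihood fit of 12 libraries, with filled points for an adjusted p under 0.05. The point for Tfrc in DKO tumors, at 2.31, is the only filled one, and the largest negative value is that of Hamp in DKO tumors, at −2.10.

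Tfrc, the receptor that takes transferrin-bound iron into cells, rose in DKO tumors. It measured 14.6, 8.61, 8.47 and 9.37 CPM in control livers 1 to 4, 32.1, 31.0, 26.2 and 115 CPM in DKO tumors, and 33.7, 24.9, 10.7 and 48.5 CPM in TKO tumors. Every DKO tumor lay above every control liver, and among TKO tumors only number 3 lay within the control range. The means were 10.3 ± 2.92, 51.2 ± 42.9 and 29.5 ± 15.8 CPM (SD, n = 4 each). In edgeR DKO tumors exceeded control livers 4.98-fold (log2 fold change 2.31, SE 0.535, adjusted p = 0.0486). TKO tumors did not pass the threshold in the same test (log2 fold change 1.52, SE 0.525, adjusted p = 0.195), and the difference between the genotypes was not larger than the spread (TKO minus DKO −0.80, SE 0.507, adjusted p = 0.651). The call in DKO tumors stood close to the threshold. With each of the 12 libraries left out in turn the log2 fold change ranged from 1.53, without DKO tumor 4, to 2.54, without control liver 1, and the adjusted p was under 0.05 in 3 of 12 fits (those without DKO tumor 3, TKO tumor 3 or TKO tumor 4) and between 0.0275 and 0.145 in all. Without DKO tumor 4 the adjusted p was 0.0779.

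Developing red cells express much Tfrc, so erythroid and blood markers are given beside it. Of 12 listed, 9 were in the table and 7 were tested. In DKO tumors 4 of 7 had a log2 fold change above 0 (median 0.31), and in TKO tumors 6 of 7 did (median 0.47), against medians of 0.02 over all tested genes. The only one past the threshold in edgeR was Klf1, an erythroid transcription factor (2.42% of all tested genes passed in DKO and 0.0864% in TKO tumors). It fell in DKO tumors (log2 fold change −2.08, SE 0.478, adjusted p = 0.0486). Its counts were low, at 26 to 65 in control livers and 9 to 25 in DKO tumors. The summed erythroid level was 1035 to 1355 CPM in control livers, 745 to 2792 CPM in DKO tumors and 1043 to 2566 CPM in TKO tumors. The highest sum was in DKO tumor 4, which also had the highest Tfrc, and the lowest was in DKO tumor 3, which had the lowest Tfrc of the DKO tumors, above every control liver. TKO tumors did not have that order. Their sums were 2566, 1043, 2165 and 1107 CPM in numbers 1 to 4, while Tfrc was lowest in number 3 and highest in number 4. Among markers of other liver cells, those of bile ducts and progenitors were separated in the same way as Tfrc in DKO tumors. Of the 7 tested, 2 rose there and none fell in edgeR, where 1.41% of all tested genes passed higher and 1.01% lower. These were the fetal liver protein gene Afp and the progenitor surface gene Prom1 (log2 fold changes 3.68 and 3.85, SE 0.709 and 0.587, edgeR adjusted p = 0.0392 and 0.0292). All 7 were above 0, with a median of 1.06. Afp was highest in DKO tumor 4 as well, at 104 CPM against 5.91 to 29.7 CPM in the other 3. Prom1 was highest in DKO tumor 1, at 63.5 CPM, with 50.4 CPM in DKO tumor 4. In TKO tumors, most of which had Tfrc above the control range, Afp measured 1.69 to 6.25 CPM and Prom1 1.84 to 8.98 CPM. Control livers had 2.37 to 4.61 CPM of Afp and 1.97 to 3.56 CPM of Prom1. What part such cells have in the Tfrc level was not tested.

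Hamp, the hepcidin gene and the main iron hormone of the liver, was lower in DKO tumors by a larger factor than any other of the 10 genes, but with a spread that kept it from passing the test. It measured 1196, 1596, 1995 and 927 CPM in control livers, 85.9, 402, 781 and 61.7 CPM in DKO tumors, and 722, 470, 1254 and 138 CPM in TKO tumors. All 4 DKO tumors and 3 of 4 TKO tumors lay below every control liver, and within DKO tumors numbers 1 and 4 were far below numbers 2 and 3. The means were 1428 ± 467, 333 ± 337 and 646 ± 471 CPM. The log2 fold change was −2.10 in DKO tumors (SE 0.786, edgeR adjusted p = 0.130), −1.14 in TKO tumors (SE 0.764, adjusted p = 0.486) and 0.96 for TKO minus DKO (SE 0.762, adjusted p = 0.725). The call in DKO tumors turned on the test. DESeq2 gave −2.11 with an adjusted p of 0.0319, and limma's voom with quality weights gave −2.88 with an adjusted p of 0.0307, tests that called 10.4% and 13% of all their genes in this comparison, against 2.42% for edgeR.

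Hamp2, a second hepcidin gene beside Hamp in the mouse genome whose product is not known to lower body iron, followed it. Hamp lies on chr7:31727390-31729036 and Hamp2 on chr7:31707391-31709200 (mm9, both on the minus strand). Hamp2 measured 202, 266, 264 and 159 CPM in control livers, 11.7, 65.0, 115 and 8.37 CPM in DKO tumors, and 116, 84.6, 262 and 15.9 CPM in TKO tumors. The ratio of Hamp2 to Hamp counts stayed between 0.115 and 0.209 in the 12 libraries. Of the 40-base windows of Hamp exons, 29.8% also occur in Hamp2, and how the authors assigned reads that map to both is not given in the sources used here, so the levels are not independent. With the counts of both summed as 1 gene, the log2 fold change in DKO tumors was −2.11 (adjusted p = 0.133).

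The promoters of this pair are shown because both genes had the same order of libraries at the low end, from DKO tumor 4 and DKO tumor 1 to TKO tumor 4. They are the 130 bases before the annotated start of each gene, from RefSeq sequence tables of GRCm38.p6, at chr7:30944030-30944159 for Hamp and chr7:30924182-30924311 for Hamp2, both on the minus strand. Capitals mark matches to GGCGCC, the core of a binding site for SMAD proteins downstream of BMP receptors, and to TTCNNNGAA, the letters bound by STAT3 and other STAT proteins. Both patterns read the same on both strands, and they do not overlap here.
Hamp: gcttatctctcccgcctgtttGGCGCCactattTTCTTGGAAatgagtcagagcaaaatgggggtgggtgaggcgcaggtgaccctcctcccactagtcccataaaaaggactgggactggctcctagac
Hamp2: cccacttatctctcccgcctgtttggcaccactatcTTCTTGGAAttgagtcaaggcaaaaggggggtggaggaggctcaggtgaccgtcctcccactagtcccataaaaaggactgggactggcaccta
Hamp holds GGCGCC starting 109 bases before its start site and TTCTTGGAA starting 97 bases before it. Hamp2 holds TTCTTGGAA starting 94 bases before its start site and no GGCGCC in its window. Of 32851 promoter windows that run from 250 bases before to 50 bases after a start, 11.9% hold GGCGCC and 8.3% hold TTCNNNGAA. Windows were found for 7 of the 10 genes, 12 windows in all, and outside Hamp the only match was 1 GGCGCC in a window of Tfrc. A match of letters is not a bound site.

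**Figure D3:**
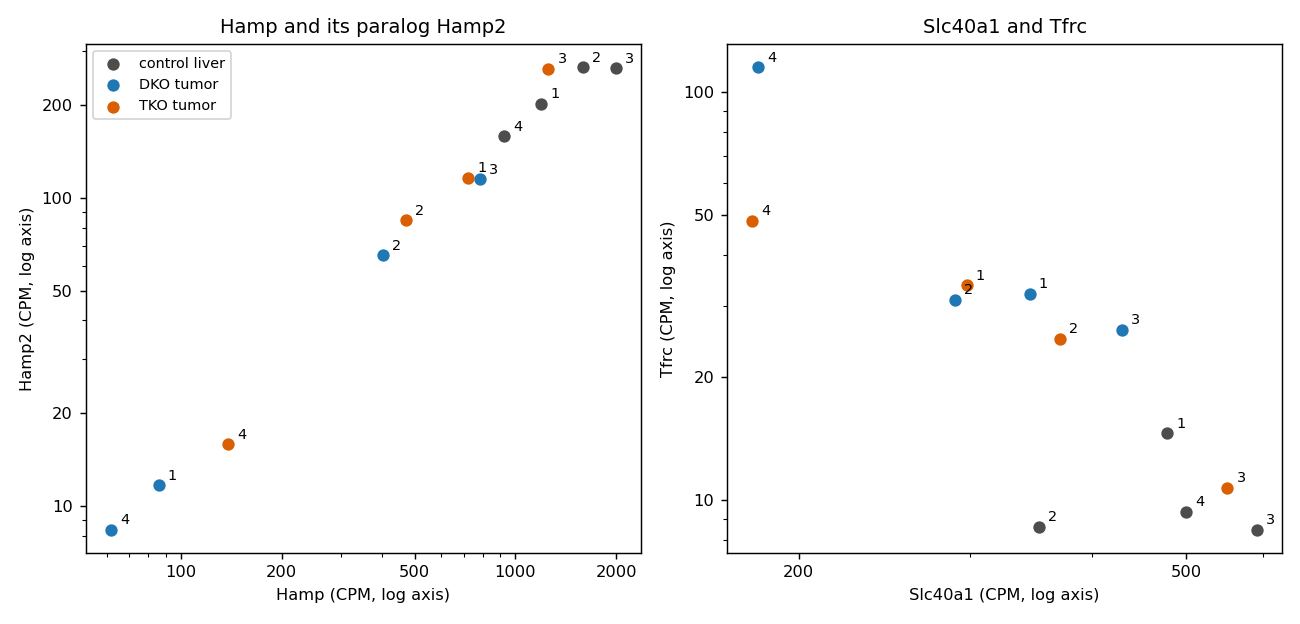
Left, CPM of Hamp2 against Hamp, and right, CPM of Tfrc against Slc40a1, in each of the 12 libraries (log axes, points numbered by replicate and coloured by group). Hamp2 follows Hamp over the whole range, from DKO tumor 4 at 61.7 CPM of Hamp to control liver 3 at 1995 CPM, and in tumors Tfrc tends to be higher where Slc40a1 is lower, with DKO tumor 4 highest for Tfrc and TKO tumor 4 lowest for Slc40a1.

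Genes that control hepcidin, together with the paralog Hamp2, were examined as a list of 22, of which 21 were tested. Hamp2 is not itself a controller, and it shares exon sequence with Hamp, so its values are not independent of those of Hamp. None passed in any comparison in edgeR. In DKO tumors 3 had an unadjusted p under 0.05 (24% of all tested genes did), DESeq2 called 2 (10.4%) and voom 3 (13%), all lower, which is close to or under those shares. Hamp2 was among the 3 with an unadjusted p under 0.05 and among the 3 called by voom. Of the 21, 16 had a log2 fold change below 0 and 5 above, and the median was −0.44, against 0.02 over all tested genes. The range ran from Hamp2 (−2.15, SE 0.841, adjusted p = 0.145) to Hjv, the hemojuvelin co-receptor for BMP signals (0.42, SE 0.268, adjusted p = 0.368). In TKO tumors 0 had an unadjusted p under 0.05 (16.3% of all tested genes did), DESeq2 and voom called 0, and the median was −0.14. There the lowest was Fgl1, a protein that hepatocytes secrete (−1.64, SE 0.849, adjusted p = 0.366), and the highest was again Hjv (0.34, SE 0.268, adjusted p = 0.564).

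The genes for the sensor and the exporter were lower in most tumors without passing the test. Tfr2, whose product senses transferrin in hepatocytes and whose loss lowers hepcidin, measured 347, 414, 363 and 419 CPM in control livers, 328, 161, 248 and 208 CPM in DKO tumors, and 205, 337, 425 and 167 CPM in TKO tumors. All DKO tumors and 3 of 4 TKO tumors lay below the control range, while TKO tumor 3 lay above it. The log2 fold change was −0.71 in DKO tumors (SE 0.294, edgeR adjusted p = 0.166) and −0.44 in TKO tumors (SE 0.293, adjusted p = 0.481).

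Slc40a1, the gene of the exporter that hepcidin removes, measured 478, 353, 591 and 500 CPM in control livers, 345, 289, 430 and 182 CPM in DKO tumors, and 298, 371, 551 and 179 CPM in TKO tumors. In 3 of 4 DKO tumors and 2 of 4 TKO tumors it lay below every control liver, with number 4 lowest in each genotype. The log2 fold change was −0.63 in DKO tumors (SE 0.336, edgeR adjusted p = 0.276) and −0.46 in TKO tumors (SE 0.335, adjusted p = 0.532). Macrophages carry much of the ferroportin of the liver, and the summed level of all 15 Kupffer cell and macrophage markers ranged from 320 to 784 CPM in control livers, from 186 to 659 CPM in DKO tumors and from 275 to 853 CPM in TKO tumors, lowest in DKO tumor 4. None of the 15 passed in edgeR in either tumor type (2.42% of all tested genes did in DKO and 0.0864% in TKO tumors). In each type 1 had an unadjusted p under 0.05 (24% of all tested genes in DKO and 16.3% in TKO tumors). Below 0 were 12 of 15 in DKO tumors (median −0.47) and 13 of 15 in TKO tumors (median −0.21). The medians over all tested genes were 0.02. The part of these cells in the Slc40a1 level was not tested.

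Transferrin and ceruloplasmin, both secreted by hepatocytes, were highest in the same tumor. Trf measured 22500, 26108, 23664 and 33548 CPM in control livers, 80622, 33184, 29897 and 33656 CPM in DKO tumors, and 27506, 39770, 21985 and 15616 CPM in TKO tumors. DKO tumor 1 stood far above all other libraries and the remaining DKO tumors lay near or just above the highest control liver. The log2 fold change was 0.75 in DKO tumors (SE 0.519, edgeR adjusted p = 0.409) and −0.01 in TKO tumors (SE 0.516, adjusted p = 0.995). Cp measured 2307, 1491, 1548 and 2234 CPM in control livers, 9120, 3618, 2652 and 2142 CPM in DKO tumors, and 3245, 4007, 1597 and 920 CPM in TKO tumors. In 3 of 4 DKO tumors and 2 of 4 TKO tumors it exceeded every control liver. Its log2 fold change was 1.21 in DKO tumors (SE 0.532, edgeR adjusted p = 0.189) and 0.37 in TKO tumors (SE 0.525, adjusted p = 0.782). DKO tumor 1 also had the largest share of albumin counts, 22.7%, and TKO tumor 4, the lowest library for both genes, had the smallest, 4.82%. Albumin is only 1 of 20 listed hepatocyte markers, and most of the 20 were lower in tumors. In DKO tumors 12 were below 0 and 8 above (median −0.40), and in TKO tumors 14 and 6 (median −0.23). The medians over all tested genes were 0.02. None of the 20 passed in edgeR (2.42% of all tested genes did in DKO and 0.0864% in TKO tumors). The part of hepatocyte content in these levels was not tested.

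Ferritin RNA showed no difference that exceeded the spread. The heavy chain gene Fth1 measured 695, 1004, 786 and 567 CPM in control livers, 754, 914, 676 and 1177 CPM in DKO tumors, and 591, 412, 683 and 1078 CPM in TKO tumors, with number 4 highest in each tumor type. Its log2 fold change was 0.21 in DKO tumors (SE 0.304, edgeR adjusted p = 0.714) and −0.14 in TKO tumors (SE 0.304, adjusted p = 0.865). The light chain gene Ftl1 measured 340, 415, 495 and 549 CPM in control livers, 195, 197, 371 and 615 CPM in DKO tumors, and 201, 224, 397 and 369 CPM in TKO tumors. DKO and TKO tumors 1 and 2 lay below every control liver and the others did not. Its log2 fold change was −0.38 in DKO tumors (SE 0.369, edgeR adjusted p = 0.558) and −0.60 in TKO tumors (SE 0.370, adjusted p = 0.453). Ftl1 values are uncertain, since 52.3% of its 40-base exon windows occur elsewhere in the genome and 20.2% of all its windows occur in Ftl2-ps, a light chain pseudogene whose counts were 1.10 to 1.37 times those of Ftl1 in every library. For Fth1 that share was 14.6%, and for Tfrc, Tfr2, Hpx and Slc40a1 it was 0%.

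Within a library, where the scaling between libraries cancels, Tfrc counts were 0.00857 to 0.0210 times those of Fth1 in control livers, 0.0339 to 0.0980 times in DKO tumors and 0.0157 to 0.0604 times in TKO tumors. The DKO range lay wholly above the control range. Fth1 counts were 1.03 to 2.42 times those of Ftl1 in control livers, 1.82 to 4.63 times in DKO tumors and 1.72 to 2.94 times in TKO tumors, and these ranges overlapped. Tfrc RNA thus stood higher relative to the ferritin heavy chain in every DKO tumor, in a comparison for which no test was made.

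Both scavenger genes varied more between control livers than between groups. Hpx measured 14680, 6846, 6368 and 25885 CPM in control livers, 17754, 8518, 10246 and 6899 CPM in DKO tumors, and 12724, 20456, 9653 and 4060 CPM in TKO tumors. Hp measured 4304, 2438, 1683 and 8352 CPM in control livers, 5274, 2223, 2524 and 1897 CPM in DKO tumors, and 3704, 5385, 2382 and 1726 CPM in TKO tumors. For both genes control livers 1 and 4 were higher than control livers 2 and 3. The log2 fold change in DKO tumors was −0.31 for Hpx (SE 0.595, edgeR adjusted p = 0.787) and −0.49 for Hp (SE 0.541, adjusted p = 0.613), and in TKO tumors it was −0.20 (SE 0.594, adjusted p = 0.909) and −0.35 (SE 0.540, adjusted p = 0.801). The direction rested on control livers 1 and 4. Without both, an alternative chosen after the data were seen, the DKO value was 0.71 for Hpx and 0.53 for Hp and the TKO value was 0.83 and 0.68, none past the threshold (adjusted p = 0.536, 0.587, 0.571 and 0.581). Hp and Hpx are acute-phase genes, made in larger amounts during inflammation, and single genes of that kind were also higher in control livers 1 and 4 than in 2 and 3. Saa1, a serum amyloid gene, measured 194, 28.0, 35.4 and 93.1 CPM in control livers 1 to 4, and Saa3, its relative, 21.7, 7.13, 8.81 and 107 CPM. Lcn2, which codes for a protein that binds bacterial iron carriers and stands in the iron uptake list, measured 116, 29.1, 19.4 and 131 CPM. The sum of the 20 genes of the acute-phase list did not have that order. It was 33854, 26472, 23257 and 17142 CPM in control livers 1 to 4, with number 4 lowest. Such a sum is weighted toward the most abundant genes and does not give the order of each gene. The part of inflammation in these differences was not tested.

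Over the acute-phase list as a whole, 20 genes listed and tested, none passed in any comparison in edgeR. In DKO tumors 3 had an unadjusted p under 0.05 (24% of all tested genes did), DESeq2 called 2 (10.4%) and voom 0 (13%), and the median log2 fold change was −0.0032, with Saa3 lowest (−2.83, SE 0.756, adjusted p = 0.0643) and Fgb, a fibrinogen chain, highest (0.38, SE 0.519, adjusted p = 0.691). In TKO tumors 7 had an unadjusted p under 0.05 (16.3% of all tested genes did), DESeq2 called 5, all lower (3.49%), voom called 0 (0.699%), 18 of 20 were below 0 and the median was −0.40. There Saa3 was again lowest (−2.36, SE 0.739, adjusted p = 0.168) and Socs3, a brake on cytokine signals, highest (0.18, SE 0.446, adjusted p = 0.882). The summed acute-phase level overlapped between groups, at 17142 to 33854 CPM in control livers, 17122 to 49844 CPM in DKO tumors and 7642 to 36048 CPM in TKO tumors.

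Among the 8 tumors some of the genes were ordered alike. All 45 pairs were compared by correlation of log2 CPM with two-sided exact permutation tests, in an analysis chosen after the data were seen, and 4 pairs had a Benjamini-Hochberg adjusted p under 0.05 for Pearson's r. Hp and Hpx were the closest (r = 0.94, adjusted exact p = 0.00112, and Spearman's rho = 1.00, adjusted exact p = 0.00223), with r = 0.98 after the 2 tumors farthest from the median of Hpx were left out. Tfrc and Slc40a1 were opposed (r = −0.90, adjusted exact p = 0.0167, and rho = −0.88, adjusted exact p = 0.138), with r = −0.95 after the 2 tumors farthest from the median of Tfrc were left out. Trf and Cp moved together (r = 0.95, adjusted exact p = 0.0182, and rho = 0.83, adjusted exact p = 0.138), with r = 0.74 after the same step on Trf. Tfrc and Hamp were opposed too (r = −0.81, adjusted exact p = 0.0497, and rho = −0.76, adjusted exact p = 0.150). That relation was weaker, with r = −0.56, without the 2 tumors farthest from the median of Tfrc. Leaving them out also narrows the range of Tfrc, so it does not show what the relation rests on. Ranks alone thus singled out Hp and Hpx, and each genotype holds 4 tumors, too few to give the relation within it.

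The genes most like each of the 10 over all 12 libraries, by Pearson's r of log2 CPM and as a description that includes group differences, included 2 relatives, Hamp2 beside Hamp on chromosome 7 and the pseudogene Ftl2-ps of Ftl1. Hamp was closest to Hamp2 (r = 0.99) and then to Rab38 (0.95), Ftl1 to Ftl2-ps (0.99) and Ilrun (0.94), and Hp and Hpx to each other (0.96) and then to Gm8909 (0.90 and 0.92). Tfrc was closest to Tmprss2 (0.95) and Emcn (0.95), Trf to Map3k4 (0.96) and Neu3 (0.92), and Cp to Pzp (0.97) and Gm17746 (0.95). Tfr2 was closest to Lcat and Shroom1 (0.94 each), Slc40a1 to Zfp976 (0.95) and Slc7a2 (0.94), and Fth1 to a gene with Entrez identifier 628161 that had no symbol (0.92) and to Nae1 (0.90).

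The wider iron and heme pathway was taken as 5 lists, with 94 genes beside the 10, of which 90 were tested. In DKO tumors 2 of 90 fell and none rose in edgeR (2.42% of all tested genes passed), 20 had an unadjusted p under 0.05 (24% of all), 62 had a log2 fold change below 0 and 28 above, and the median was −0.17. The counts of genes that passed or had an unadjusted p under 0.05 are close to those shares of all genes. The directions were more often downward, with 9 genes wholly below control livers (7.3% of all tested genes were) and 1 wholly above (8.87%). The median over all tested genes was 0.02. With each library left out in turn 0 to 3 passed, and none did without DKO tumor 1, 2 or 4, TKO tumor 1, or control liver 2, 3 or 4. Both that fell belong to the mitochondrial list and code for late factors of iron-sulfur cluster delivery, which hand finished clusters to enzymes such as lipoic acid synthase. Nfu1 measured 12.8, 22.0, 17.8 and 16.3 CPM in control livers and 9.51, 7.36, 9.40 and 11.3 CPM in DKO tumors (log2 fold change −0.87, SE 0.191, edgeR adjusted p = 0.0460). Bola3 measured 11.6, 27.8, 18.03 and 19.1 CPM in control livers and 11.04, 6.80, 8.58 and 10.6 CPM in DKO tumors (log2 fold change −1.04, SE 0.244, edgeR adjusted p = 0.0488). For both, every DKO tumor lay below every control liver, for Bola3 by a small margin, since DKO tumor 1 had 11.04 CPM and control liver 1 had 11.6 CPM. In TKO tumors the values were −0.50 for Nfu1 (SE 0.190, adjusted p = 0.224) and −0.67 for Bola3 (SE 0.242, adjusted p = 0.209). Of the 22 mitochondrial genes tested, 19 were below 0 in DKO tumors (median −0.34) and 19 in TKO tumors (median −0.17), where none passed in edgeR, DESeq2 or voom, 3 had an unadjusted p under 0.05 (16.3% of all tested genes did) and the extremes were Bola3 and Iba57, another cluster assembly gene (0.15, SE 0.166, adjusted p = 0.707).

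**Figure D4:**
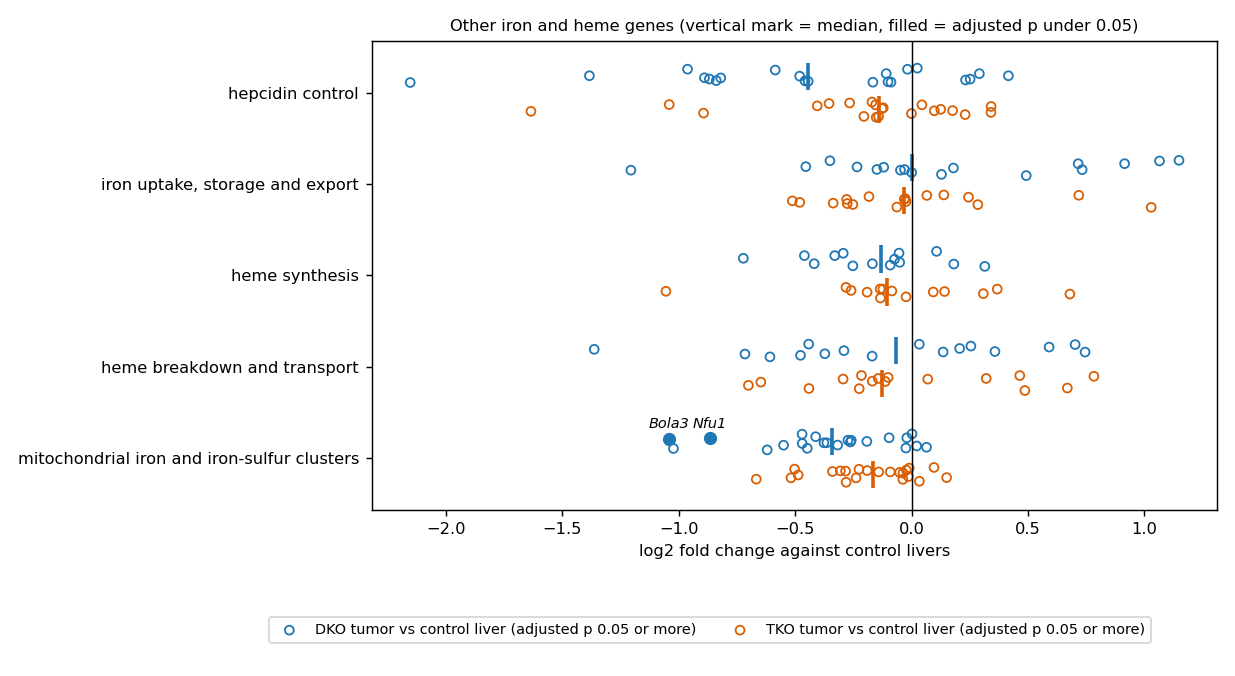
Log2 fold change against control livers (horizontal axis) of the tested genes of the 5 iron and heme lists without the 10 genes above, in DKO and TKO tumors, with a vertical mark at each list's median and filled points for an adjusted p under 0.05. The filled points are Bola3 (−1.04) and Nfu1 (−0.87) in DKO tumors, and the remaining lists hold none.

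No gene of heme synthesis passed in any comparison in edgeR, out of 14 tested. In DKO tumors 3 had an unadjusted p under 0.05 (24% of all tested genes did), DESeq2 called 0 (10.4%) and voom 3 (13%), all lower, and the range ran from Alas1, the first and rate-limiting enzyme of heme synthesis in liver (−0.72, SE 0.612, adjusted p = 0.503), to Alas2, its erythroid form (0.31, SE 0.311, adjusted p = 0.571). In TKO tumors 1 had an unadjusted p under 0.05 (16.3%), DESeq2 and voom called 0, Alas1 was lowest (−1.06, SE 0.616, adjusted p = 0.424) and Ppox, a late enzyme of the pathway, highest (0.68, SE 0.215, adjusted p = 0.170). Of 16 genes of heme breakdown and transport, again none passed in edgeR. In each tumor type 4 had an unadjusted p under 0.05 (24% of all tested genes in DKO and 16.3% in TKO tumors). DESeq2 called 3 in DKO tumors (10.4%) and 2 in TKO tumors (3.49%), and voom called 2 (13%) and 0 (0.699%). In DKO tumors the lowest was Cd163, the macrophage receptor for haptoglobin bound to hemoglobin (−1.36, SE 0.725, adjusted p = 0.273), and the highest was Slc48a1, a heme transporter of lysosomes (0.75, SE 0.216, adjusted p = 0.0758). In TKO tumors the lowest was Pgrmc1, a heme-binding membrane protein (−0.70, SE 0.238, adjusted p = 0.191), and the highest was Flvcr2 (0.78, SE 0.459, adjusted p = 0.426).

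None of 17 tested genes of iron uptake, storage and export passed in edgeR, and 3 had an unadjusted p under 0.05 in each tumor type (24% of all tested genes in DKO and 16.3% in TKO tumors). DESeq2 called Slc11a2 (DMT1, an importer of ferrous iron) in both tumor types, a gene named here after its values were seen, and voom called 3 genes in DKO (13% of all) and 0 in TKO tumors. In DKO tumors Steap2, a metalloreductase, was lowest (−1.21, SE 0.577, adjusted p = 0.227) and Heph, a relative of Cp that oxidises exported iron, was highest (1.15, SE 0.462, adjusted p = 0.155). In TKO tumors Lcn2 was lowest (−0.51, SE 0.884, adjusted p = 0.827) and Heph highest (1.03, SE 0.465, adjusted p = 0.297). Heph levels were low, at 0.795 ± 0.224 CPM in control livers and 1.76 ± 1.40 CPM in DKO tumors. Over the 90 genes, none passed in TKO tumors in edgeR, where 11 had an unadjusted p under 0.05 (16.3% of all tested genes did), DESeq2 called 3 (3.49%), voom called 0 (0.699%) and the median log2 fold change was −0.13, or between TKO and DKO tumors, where 5 had an unadjusted p under 0.05 (9%), DESeq2 and voom called 0 and the median was 0.10. In that last comparison the extremes were Fgl1 (−1.05) and Hamp2 (1.26) for hepcidin control, Cybrd1 (−1.40) and Steap2 (0.93) for uptake, storage and export, Alas1 (−0.33) and Ppox (0.50) for heme synthesis, Ugt1a1 (−0.80) and Cd163 (1.22) for heme breakdown, Slc25a37 (−0.35) and Cisd1 (0.50) for mitochondria, and Apcs (−1.30) and Saa3 (0.47) for the acute phase. In DKO tumors, where edgeR called 2 of the 90, DESeq2 called 10 (3 higher and 7 lower), against 10.4% of all its genes, and voom 15 (2 higher and 13 lower), against 13%. Over all genes DESeq2 called 828 higher and 690 lower, and voom 928 higher and 876 lower.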

How the data were processed

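From poly(A) RNA the authors made SOLiD libraries. Reads were placed on mm9 by BWA, featureCounts gave the number per Entrez gene, and these raw counts were deposited without normalization. Tool versions, strandedness and the handling of multi-mapping reads are not given in the sources used here. Groups and replicate numbers were taken from the sample titles. Per the study's methods, RNA came from 4 separate livers in each group, so p-values measure the spread between livers. Symbols came from a RefSeq GRCm38.p6 table (24191 genes matched, 99.4% of counts), and positions from GENCODE vM1 on mm9.

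Counts were compared in R 4.3.3 with edgeR 4.0.16 (TMM, filterByExpr, quasi-likelihood test, 12 libraries with a mean per group, Benjamini-Hochberg at 0.05). CPM values are TMM-scaled. The scripts were tested on simulated data. With 200 genes changed in simulated DKO tumors, 5.76% of the calls of edgeR were false, 18.5% of those of DESeq2 and 5% of those of voom. With no gene changed, DESeq2 called 8 genes and edgeR and voom 0. The simulated counts were drawn with edgeR's own estimates of spread, the same in every group. They therefore cannot grade the calls of these tools on the real libraries. Alternatives were DESeq2 1.42.0 on genes with at least 1 count, limma 3.58.1 voom with quality weights, other size factors, total counts, other filters (at least 10 counts in every library, or none), 8 libraries only, a sex-gene covariate, the replicate number as a block, an adjusted p of 0.1 and leaving out libraries. Log2 CPM for correlations used a prior count of 2. Exon windows of 40 bases were searched in mm9 to find shared sequence. The 10 genes and all lists were chosen with earlier results of these data known. Named genes are the 10, list genes that passed or, where none did, the highest and lowest of a list, the 2 genes most correlated with each of the 10, Alb and the targeted genes. Ftl2-ps values, Saa1, Lcn2 in control livers, Klf1, Afp, Prom1 and Slc11a2 were named with their values in view. Replicates of a group differed by more than sampling noise in every pair. Sequences for Trf, Hp and Slc40a1 promoters were not used here.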

Additional observations from a re-analysis of the deposited data

Results flagged for a closer look

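Among 30 groups (10 genes in 3 groups of 4 libraries), 3 held a library that stood apart from the other 3 by Dixon's test at its 95% critical value of 0.829 for 4 samples, where chance gives about 1 in 20 groups. Trf in DKO tumor 1, at 80622 CPM, stood above the other DKO tumors. Tfrc in control liver 1, at 14.6 CPM, stood above the other control livers. Tfrc in DKO tumor 4, at 115 CPM, stood above the other DKO tumors.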

How the results depend on the processing

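The alternatives and 4 more added after the data were seen (2 pairs of libraries left out, a newer edgeR dispersion estimate, and paralog counts summed) left 698 of 750 log2 fold changes of the 10 genes with the same direction and side of the threshold, and the cause of the other changes was not tested. Where DKO tumors were compared with control livers, edgeR called 336 genes (196 higher and 140 lower). This count was 1460 at an adjusted p of 0.1, 1518 with DESeq2, 1804 with voom, 759 with 8 libraries, 59 with total counts (52 higher and 7 lower), 0 with the sex-gene covariate, 138 without control livers 1 and 4, 145 without DKO and TKO tumors 4, and 0 to 651 with each library left out in turn. The covariate set Y-linked genes against Xist, a gene expressed in females. Every library had only 1 to 6 Xist counts, and 47.9 to 81.2 CPM of the Y-linked gene Ddx3y. The covariate thus did not separate males from females, and its fits do not show an effect of sex. Of the 10 genes, 2 were called with DESeq2 and voom, 0 with total counts, the covariate or either pair of libraries left out, and 0 to 1 with each library left out. Of the 90 further iron and heme genes, 10 were called at 0.1 and with DESeq2, 15 with voom, 0 with total counts or the covariate, 1 without DKO and TKO tumors 4, and 0 to 3 with each library left out. For TKO tumors against control livers the 12 calls became 80 at 0.1, 507 with DESeq2, 97 with voom, 22 without a filter, 0 with the covariate, 2 without control livers 1 and 4, and 0 to 231 with each library left out, and DESeq2 called 3 further iron and heme genes. Between TKO and DKO tumors DESeq2 called 56 genes and edgeR 0, also with each library left out. Total counts moved the median log2 fold change of all genes from 0.02 to 0.17 in TKO tumors and from 0.01 to 0.11 for TKO minus DKO. For Tfrc in DKO tumors the adjusted p was 0.0664 with total counts, 0.139 with the covariate, 0.0941 without control livers 1 and 4 and 0.0541 without DKO and TKO tumors 4.

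Same-numbered libraries of different groups deviated with correlations of −0.17 to 0.37, and differently numbered ones of −0.35 to 0.32, so the numbers were not taken to pair them. With the replicate number as a block, 509 genes and 2 of the 10 (Tfrc and Hamp, whose log2 fold change was −2.70 with adjusted p = 0.0344) were called in DKO tumors and 1 gene in TKO tumors.

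The Tfrc value in DKO tumors, the only one of the 10 genes past the threshold in edgeR, did not reverse. Of the others in DKO tumors, voom gave 0.27 for Hpx and 0.15 for Hp, and leaving out control livers 1 and 4 gave 0.71 for Hpx, 0.53 for Hp and −0.028 for Fth1. With each library left out in turn, Hpx ranged from −0.67 to 0.22 and Hp from −0.94 to 0.085. In TKO tumors Trf was 0.15 without DKO and TKO tumors 4, 0.073 without control livers 1 and 4, 0.0019 without a filter, 0.085 with total counts and 0.088 with voom. Hpx was 0.068 without DKO and TKO tumors 4, 0.83 without control livers 1 and 4 and 0.33 with voom. Hp was 0.68 without control livers 1 and 4 and 0.31 with voom, Fth1 was 0.089 with total counts, and Cp was −0.0015 with the covariate. With each library left out in turn, the TKO values ranged from −0.29 to 0.16 for Trf, −0.61 to 0.33 for Hpx, −0.69 to 0.23 for Hp and −0.45 to 0.038 for Fth1. For TKO minus DKO, Ftl1 was 0.088 without DKO and TKO tumors 4 and 0.037 with voom. With each library left out the ranges were −0.30 to 0.46 for Hpx, −0.20 to 0.58 for Hp, −0.41 to 0.23 for Ftl1 and −0.14 to 0.38 for Slc40a1.

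Depth limited E2f7, with 4 to 24 counts in a library, more than the 10 genes, which had at least 70.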
